A study of Mus musculus with 12 samples.

Results

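The genes of the mitochondrial ribosomal proteins were taken as all rows of the deposited mouse table whose symbol is Mrpl or Mrps followed by a number and at most 1 letter, with pseudogenes left out. This gave 78 of 56748 genes, of which 49 carry an Mrpl symbol and 29 an Mrps symbol. By the position of their proteins in the ribosome, 51 belong to the large subunit, which includes the products of Mrps18a and Mrps30, and 26 to the small subunit. The remaining gene, Mrps36, encodes a protein now known as a component of the 2-oxoglutarate dehydrogenase complex and was kept because its symbol meets the rule.

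Mitochondrial ribosomes translate the few proteins encoded by mitochondrial DNA, which are core subunits of the respiratory chain complexes and of ATP synthase. Their ribosomal RNAs come from mitochondrial DNA, whereas all of their proteins are encoded in the nucleus, made in the cytosol and imported. Rods are known for densely packed mitochondria in the ellipsoid of the inner segment, and photoreceptors are also known for strong aerobic glycolysis, in which pyruvate kinase M2 (PKM2) takes part.

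RNA pulled down with tagged polyribosomes of rods (Rod-TRAP) and RNA of the whole retinal lysate (input) were sequenced from 2 genotypes, with 3 libraries in each of the 4 groups. Control mice were RiboTag;Pkm2fl/+;i75-Rod-Cre, and knockout mice were RiboTag;Pkm2fl/fl;i75-Rod-Cre (Pkm2Rodko). All mice were homozygous for RiboTag, an allele that adds an HA tag to a ribosomal protein of the cytosol once Cre has acted, and all carried the i75 Cre, which is driven by a rod promoter and active in rods. The controls therefore carried Cre and 1 floxed Pkm2 allele in their rods as well. The methods give an age of 2 months for TRAP, and the deposited description gives 2 weeks. Where a member is said to be higher in rods, the difference combines the cell type with binding to polyribosomes, and these cannot be told apart. In the lysate, fewer cells of a type and less RNA per cell cannot be told apart.

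Libraries held between 13458891 and 22790070 reads on genes. Pkm, the targeted gene, had 67347 ± 2683 normalised reads (reads after all 12 libraries were put on one scale) in control rods and 29105 ± 1206 in knockout rods (SD, n = 3 each), so the rod libraries matched their labels. All 14 rod markers reported were higher in control rods than in control retina (13 by total reads), from 0.92 to 2.10 on the log2 scale. The listed markers of cones, Muller glia, amacrine cells, ganglion cells, pigment epithelium, microglia and endothelium were all lower. Of 12 bipolar markers, 10 were lower and 1, Otx2, which rods also express, was higher. Markers of other cells were still read in the rod libraries, with a summed Muller glia level of 11323 to 14312 in control rods against 79817 to 92207 in control retina. No listed marker was at 0 in all libraries.

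Of the 78 members, 76 had at least 10 reads in every library. Mrps34 was thinly read, with 9 to 55 reads per library, and its exons overlap those of Mapk8ip3 on the opposite strand over 63.4% of their length and those of Nme3 on the same strand over 37.0%. Mrpl53 had 0 reads in all 12 libraries, although 88.0% of its exonic bases lie within exons of Gm42688, a gene model on the same strand that had a mean of 15.7 reads in control rods and 30.0 in control retina. How reads in shared exons were assigned is not given in the sources used here. Mrpl53 was not tested, which left 77 members.

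Promoter sequence was available for 69 of the 78 members, as the 250 bases upstream of the RefSeq start site in GRCm38.p6. Of these, 24.6% held the ETS motif CCGGAAG on either strand, against 7.05% of 27025 mouse promoters. The motif of NRF1, a factor known for nuclear genes of mitochondrial proteins, was searched as GCGCNTGCG and was found in 21.7% of member promoters and in 5.40% of all. The motif AAGATGGC of YY1 was found in 5.80% and 1.59%, respectively. The motifs of the rod factors CRX (CTAATCC) and NRL (TGCTGAC) were found in 4.35% and 2.90% of member promoters, against 1.77% and 3.72% of all. TATAAA was found in 5.80% of member promoters and 12.97% of all. The median GC content was 58.4% in the members and 52.0% in all promoters. The SP1 motif GGGCGG was found in 47.8% and 32.9%, and the NFY motif CCAAT in 36.2% and 34.5%. All motifs were read on both strands, the ends of the ETS and YY1 motifs can overlap in AAG, and a match describes only the letters in this window.

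The promoters of 5 members are shown to set the most rod-enriched gene (Mrpl49), an enriched gene with the ETS motif (Mrpl34) and the most enriched gene with the NRF1 motif (Mrpl44) beside the least enriched genes (Mrps15 and Mrpl3). Capitals mark matches to the ETS, NRF1, YY1, CRX or NRL motif.
Mrpl49, chr19:6057756-6058005, minus strand: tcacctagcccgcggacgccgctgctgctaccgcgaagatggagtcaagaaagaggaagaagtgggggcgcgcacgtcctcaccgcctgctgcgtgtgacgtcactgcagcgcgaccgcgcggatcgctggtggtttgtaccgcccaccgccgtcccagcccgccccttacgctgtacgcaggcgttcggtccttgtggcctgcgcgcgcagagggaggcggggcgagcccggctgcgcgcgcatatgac
Mrpl34, chr8:71464676-71464925, plus strand: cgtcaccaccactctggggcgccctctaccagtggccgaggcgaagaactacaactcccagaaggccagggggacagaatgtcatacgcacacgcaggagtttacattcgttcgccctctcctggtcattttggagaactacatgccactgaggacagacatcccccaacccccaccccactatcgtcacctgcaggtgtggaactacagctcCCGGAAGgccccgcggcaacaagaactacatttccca
Mrpl44, chr1:79775768-79776017, plus strand: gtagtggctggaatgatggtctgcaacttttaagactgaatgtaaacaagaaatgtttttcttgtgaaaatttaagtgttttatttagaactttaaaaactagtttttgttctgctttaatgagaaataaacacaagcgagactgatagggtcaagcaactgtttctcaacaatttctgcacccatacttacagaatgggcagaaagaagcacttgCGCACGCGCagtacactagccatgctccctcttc
Mrps15, chr4:126046678-126046927, plus strand: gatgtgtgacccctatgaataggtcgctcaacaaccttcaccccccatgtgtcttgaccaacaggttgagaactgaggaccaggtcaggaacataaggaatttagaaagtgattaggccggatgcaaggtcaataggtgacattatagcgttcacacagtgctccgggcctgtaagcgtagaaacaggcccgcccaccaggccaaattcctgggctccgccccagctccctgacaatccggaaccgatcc
Mrpl3, chr9:105053018-105053267, plus strand: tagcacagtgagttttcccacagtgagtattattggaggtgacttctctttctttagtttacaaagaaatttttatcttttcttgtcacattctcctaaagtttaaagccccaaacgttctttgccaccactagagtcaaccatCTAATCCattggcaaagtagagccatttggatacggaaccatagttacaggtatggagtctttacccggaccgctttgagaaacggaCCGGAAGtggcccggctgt

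Mrpl49 and Mrps15, at the ends of the range of enrichment, held none of these 5 motifs in the window. Among the tested members, the median log2 fold change of rods over retina in control mice was 0.53 in the 16 with the ETS motif and 0.50 in the 52 without it. The corresponding medians were 0.69 in the 15 with the NRF1 motif and 0.50 in the 53 without it. These medians are given as a description.

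The abundance of the members was compared per kilobase of exon, since longer genes collect more reads. Length was counted over all annotated exons of a gene together, so it can exceed that of a single transcript and lower the value per kb. For Mrpl33 it was 7326 bases, against a median of 2394 over the 78 members. In control rods, the 77 members spanned 21.7 to 2394 normalised reads per kb, with a median of 205. Mrpl49, a mitochondria-specific protein of the large subunit, stood at the top with 2394 ± 283 reads per kb (SD, n = 3). It was followed by Mrpl54 with 1030 ± 57.7, Mrpl28 with 959 ± 127 and Mrpl34 with 812 ± 172 reads per kb. All 4 encode large subunit proteins, and the 3 libraries of Mrpl49 lay above those of every other member. At the other end, Mrps34 had 21.7 ± 8.0 reads per kb, Mrpl33 had 30.1 ± 4.8 and Mrpl16, which lies near the catalytic centre, had 41.7 ± 3.6, beside Mrpl53 at 0. Over the 76 pairs of neighbours in this order, the 3 libraries overlapped in all but 5, so most neighbouring ranks cannot be told apart. The order was nearly the same in the other groups: Spearman's rank correlation over the 77 members was 0.994 between control and knockout rods and 0.963 between control rods and control retina. The points share libraries and gene lengths, and the values are a description.

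The first comparison asked how the members in rod polyribosomes stood against the whole retina. All libraries were put on a common scale by trimmed mean of M-values (TMM) normalisation, and log2(value + 1) was compared with limma, at a Benjamini-Hochberg adjusted p under 0.05 over all genes tested. In control mice, 58 of 77 members were higher in rods and 0 were lower, where scaling by total reads gave 20 higher and 16 lower. At an unadjusted p under 0.05, 0 were lower as well. Of all 24463 genes tested, 24.6% were higher and 37.3% lower. In knockout mice, 59 of 77 members were higher and 0 lower (24 and 13 by total reads), against 25.5% and 37.5% of 24080 genes. The share of higher genes was larger when only the 12918 genes with at least 10 reads in every library were tested. Of these, 5912 were higher and 3614 lower in control rods, beside 58 and 0 of 76 members. In knockout rods, 6065 were higher and 3586 lower, beside 59 and 0 of 76 members. In 62 members, the 3 control rod libraries all lay above the 3 control retina libraries, against 26.4% of all genes. edgeR called 55 members higher and DESeq2 53 in control mice, and both called 0 lower.

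The median log2 fold change of the 77 members was 0.53 in control and 0.65 in knockout mice, whereas the median of all genes tested was -0.39 and -0.36, respectively. The middle part of the members' control values (quartiles) ran from 0.33 to 0.89. Among the 12918 genes with at least 10 reads in every library, the median was 0.24 in control mice, and 60 of 76 members lay above it.

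**Figure D1:**
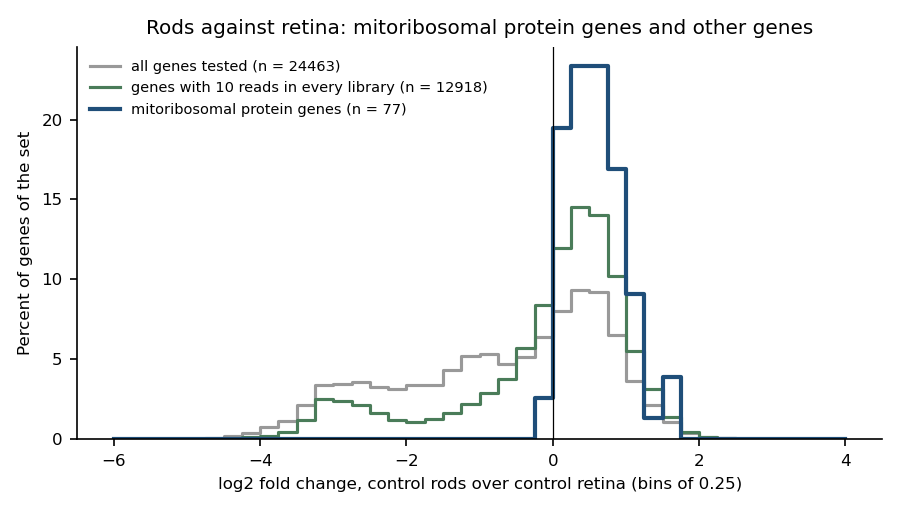
Distribution of the log2 fold change of control rods over control retina, in bins of 0.25, as the percent of genes in each set, on the TMM scale. By total reads all values shift to the left and 16 members are called lower. The 77 mitoribosomal protein genes lie between -0.05 and 1.58, to the right of the long left tail of all 24463 genes tested and of the 12918 genes with 10 reads in every library.

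The direction of these differences depended on how the 2 kinds of library were put on one scale. When libraries were scaled by their total reads, the 20 higher and 16 lower members stood beside 9.02% and 52.1% of all genes. With the values as deposited, where rods and retina had been scaled apart, 18 were higher and 18 lower, beside 7.96% and 53.6% of all genes. Against the median of all genes, the median member stood 0.92 higher with TMM and 0.91 with median-of-ratios (RLE). It stood 0.83 higher with total reads and 0.81 with the deposited values. All 77 members lay above the median of all genes in control mice under these 4 scalings, and 76 or 77 in knockout mice. Each scaling divides a library by a single factor, which shifts members and other genes nearly alike. This gap was therefore bound to be similar under all 4, and its similarity is no separate evidence. The gap was smaller against the genes with at least 10 reads in every library, compared on the TMM scale only. The medians of members and of these genes were 0.53 and 0.24 in control and 0.65 and 0.26 in knockout mice. Above the median of these genes lay 60 of 76 members in control and 62 of 76 in knockout mice.

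Under all 4 scalings, 18 members were called higher in control rods and 24 in knockout rods, and 16 genes were in both sets. The share of all genes called higher under all 4 was not counted. With the deposited values alone, 7.96% of all genes were higher in control rods and 8.55% in knockout rods. The 18 comprised 14 large subunit genes (Mrpl2, Mrpl14, Mrpl15, Mrpl20, Mrpl21, Mrpl28, Mrpl34, Mrpl39, Mrpl40, Mrpl44, Mrpl46, Mrpl49, Mrpl51 and Mrpl54) and 4 small subunit genes (Mrps2, Mrps7, Mrps22 and Mrps28). No member was called lower under all 4. Another 5 members (Mrpl17, Mrpl30, Mrps5, Mrps17 and Mrps36) were called higher in control rods under one scaling and lower under another.

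**Figure D2:**
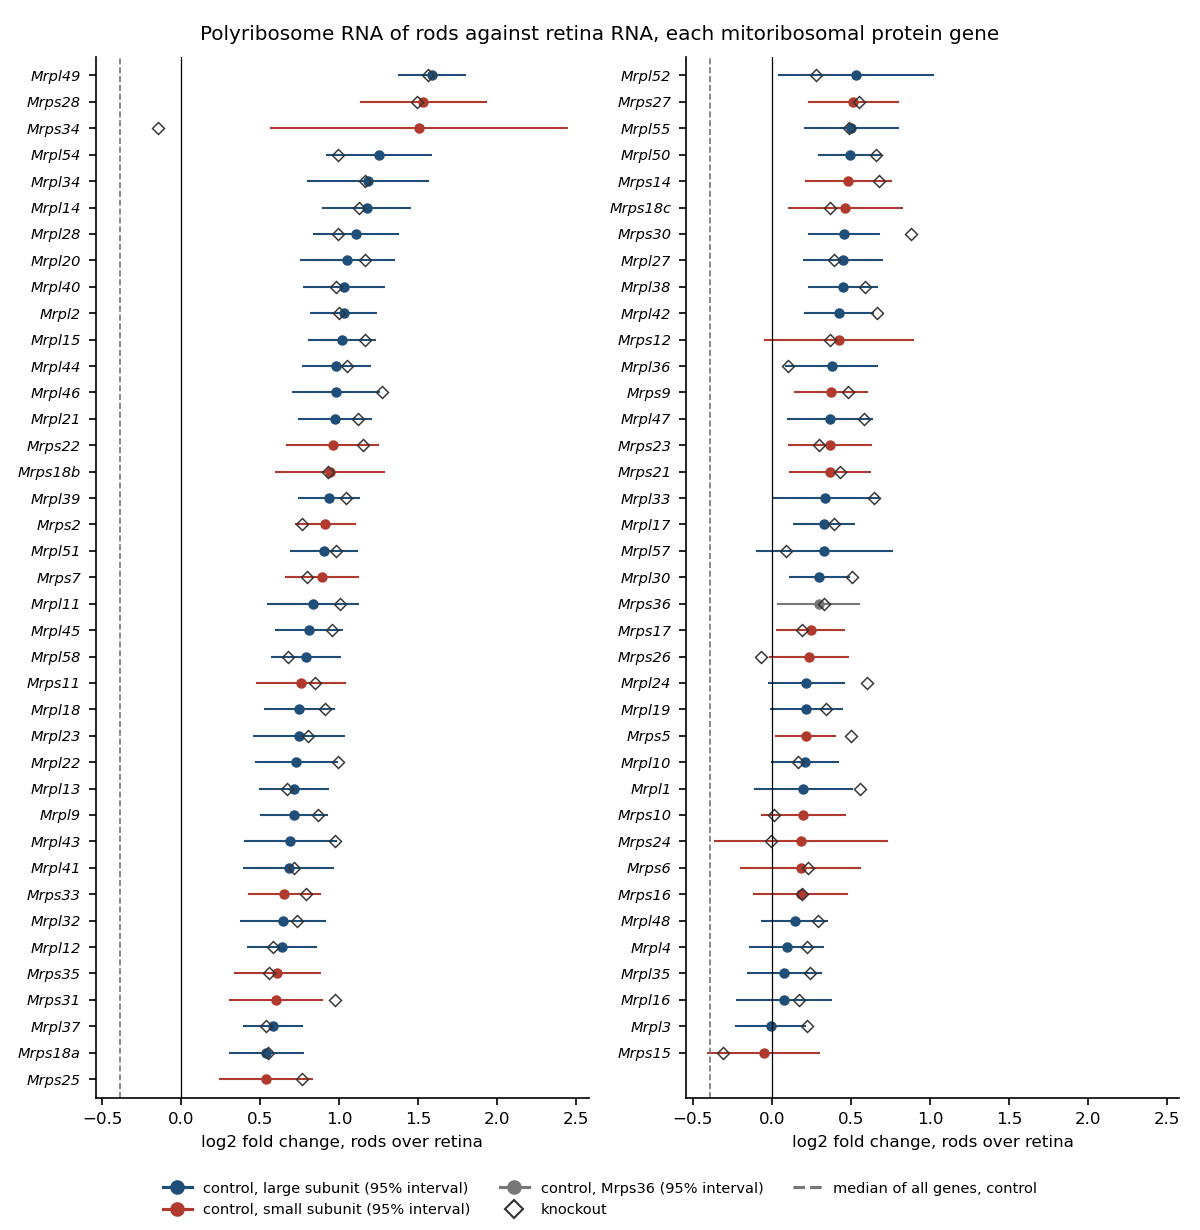
Log2 fold change of rods over retina for each of the 77 tested members, on the TMM scale, in order of the control value; by total reads all values lie further left. Circles and lines give the control value with its 95% interval, coloured by subunit, and diamonds the knockout value. Mrpl49 and Mrps28 lead in both genotypes, Mrps15 is last in both, and the 2 values of Mrps34 lie far apart.

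Among the large subunit genes, Mrpl49 had the largest enrichment. Its normalised reads were 4554, 3932 and 4988 in control rods, 5118, 4706 and 4058 in knockout rods, 1584, 1455 and 1435 in control retina and 1649, 1555 and 1493 in knockout retina. Every rod library was above every retina library by more than 2-fold. The log2 fold change was 1.58 ± 0.10 (SE) in control mice, with an adjusted p of 2.0e-09 from limma, and 1.56 ± 0.10 in knockout mice. Mrpl49 made up 10.04% ± 0.62 of all member reads in control rods and 5.37% ± 0.19 in control retina.

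The other large subunit genes named by rank were Mrpl54, Mrpl34 and Mrpl14, whose product lies at the interface of the subunits. Mrpl54 had 822, 822 and 905 normalised reads in control rods and 355, 291 and 436 in control retina, a log2 fold change of 1.25 ± 0.15. Mrpl34 had 491, 389 and 598 against 208, 191 and 245, a log2 fold change of 1.18 ± 0.18. Mrpl14 had 786, 554 and 760 against 310, 295 and 315, a log2 fold change of 1.17 ± 0.13. In none of the 3 did the rod libraries overlap those of retina. Their limma adjusted p-values in control mice were 4.1e-06, 3.3e-05 and 1.1e-06, and their knockout values were 0.99, 1.16 and 1.13. The exons of Mrpl14 overlap those of Tmem63b on the opposite strand over 11.2% of their length. Tmem63b had a mean of 3219 reads in control rods and 2525 in control retina.

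Mrpl10 and Mrpl12 encode proteins of the stalk that recruits translation factors. Mrpl12 had a log2 fold change of 0.64 ± 0.10 in control rods, with an adjusted p of 6.0e-05. Mrpl10 had 0.21 ± 0.10, with an adjusted p of 0.076, although its 586 to 690 reads in control rods lay above the 528 to 584 in control retina. With rod and retina libraries paired by number, the adjusted p of Mrpl10 was 0.036. With total reads scaling and with the deposited values, Mrpl10 was lower in rods, at -0.34 and -0.39. Mrpl58, a peptidyl-tRNA hydrolase that releases stalled peptides and is built into the large subunit, had 0.79 ± 0.10, and Mrpl44, related to RNase III, had 0.98 ± 0.10.

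Not every large subunit gene was higher on the TMM scale, and by total reads all values lay lower. Mrpl3, which lies near the catalytic centre, had 496, 461 and 464 normalised reads in control rods and 440, 508 and 482 in control retina, and the groups overlapped. Its log2 fold change was -0.01, with a 95% interval of -0.23 to 0.21. The values of Mrpl16 and Mrpl48 were 0.08 and 0.14, with intervals of -0.22 to 0.37 and -0.06 to 0.35. The exons of Mrpl48 overlap those of Rab6a on the opposite strand over 8.7% of their length. Rab6a had a mean of 1360 reads in control rods and 3381 in control retina.

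Among the small subunit genes, Mrps28 had the largest well-read enrichment. Its normalised reads were 305, 303 and 347 in control rods, 346, 361 and 223 in knockout rods, 125, 91.8 and 114 in control retina and 127, 94.3 and 103 in knockout retina. All rod libraries were above all retina libraries, and the third knockout rod library was the lowest of the 6. The log2 fold change was 1.53 ± 0.19 in control mice and 1.49 ± 0.19 in knockout mice, with limma adjusted p-values of 3.7e-06 and 4.3e-06.

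Mrps34 was called higher in control rods with a log2 fold change of 1.5 ± 0.44 and an adjusted p of 0.0077, yet this call was lost with total reads scaling and with the deposited values (adjusted p of 0.063 and 0.072). In knockout mice its value was -0.15, with an interval of -1.08 to 0.79. Mrps15, whose bacterial homologue binds the small subunit RNA early in assembly, had 138, 187 and 143 normalised reads in control rods and 169, 147 and 165 in control retina. The groups overlapped on the TMM scale. The log2 fold changes were -0.05 in control (interval -0.40 to 0.30) and -0.31 in knockout mice (interval -0.66 to 0.04), the lowest of all members in both. By total reads, the values of all members lay lower.

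Mrps12, a protein of the decoding site, had a log2 fold change of 0.42 ± 0.22 in control rods, with an adjusted p of 0.11, and overlapping groups. Paired by number, its adjusted p was 0.019. Of the 3 paralogs of the S18 family, Mrps18b had 0.94 ± 0.16, Mrps18a had 0.54 ± 0.11 and Mrps18c had 0.46 ± 0.17, and the differences between them were not tested. All 3 were called with TMM scaling, while the values of Mrps18a and Mrps18c were below 0 with total reads scaling. The exons of Mrps18b overlap those of Gm16279 on the opposite strand over 30.5% of their length, but that gene had a mean of at most 7.3 reads in the control groups. Mrps36, the gene that is no ribosomal protein, had 0.30 ± 0.12, a call that was lost or reversed in several alternatives.

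**Figure D3:**
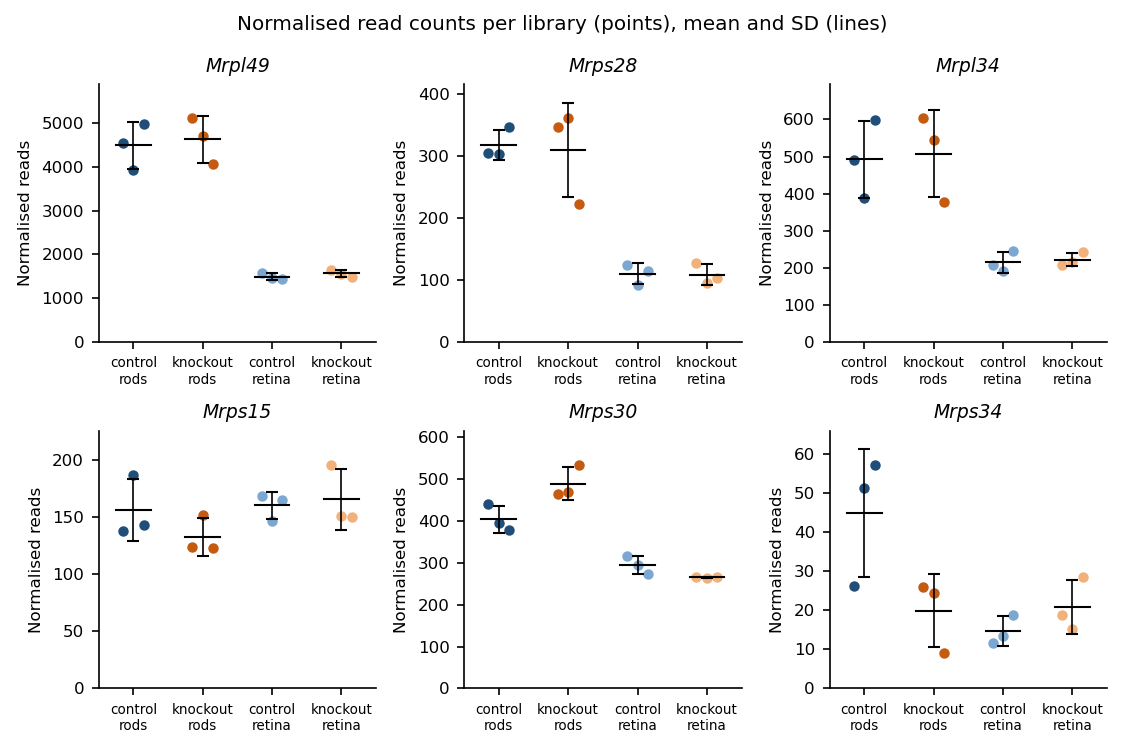
Normalised reads of 6 members in each library (points), with the group mean and SD (lines), on axes that start at 0. Mrpl49, Mrps28 and Mrpl34 lie higher in all 6 rod libraries than in all 6 retina libraries, Mrps15 does not separate, and Mrps30 and Mrps34 show the 2 members with the smallest p for genotype in rods.

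With TMM scaling, 38 of 50 tested large subunit genes and 19 of 26 small subunit genes were higher in control rods. By total reads, 15 and 5 were higher and 10 and 6 lower. Of all genes tested, 24.6% were higher with TMM scaling, and 9.02% were higher and 52.1% lower by total reads. With TMM scaling, 5912 of the 12918 genes with at least 10 reads in every library were higher. The median log2 fold change was 0.64 in the large and 0.47 in the small subunit (0.090 and -0.074 by total reads). Members classed as mitochondria-specific by the systematic names of their proteins had a median of 0.63 with TMM scaling (26 of 30 higher). Among them were the S18 paralogs Mrps18a and Mrps18b, Mrpl44, which is related to RNase III, and Mrpl58. The class therefore rests on names rather than on descent. Those classed as having a bacterial homologue had 0.44 (31 of 46 higher), where 24.6% of all genes were higher. Counts by total reads were not taken for these classes. Enrichment also varied with gene length, with a median of 0.68 in 19 members with exons under 1.5 kb, 0.64 in 36 members of 1.5 to 4 kb and 0.35 in 22 members over 4 kb. Spearman's rank correlation between length and enrichment was -0.33 over the 77 members and -0.24 over 12810 genes with 10 reads in every library, in control mice, and -0.18 and -0.23 in knockout mice, as a description over genes of the same libraries. The part of length in the difference between subunits was not tested.

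The summed reads gave a measure that needs no common scale beyond the library total. The members took 0.1999%, 0.199% and 0.215% of the reads in control rods and 0.192%, 0.179% and 0.189% in control retina. The groups did not overlap, with means of 0.205% ± 0.0093 and 0.187% ± 0.0067 (SD, n = 3 each), and the exact two-sided permutation p was 0.10, the smallest that 3 against 3 libraries allow. In knockout mice the shares were 0.226%, 0.208% and 0.186% in rods and 0.188%, 0.186% and 0.179% in retina, which overlapped (exact permutation p = 0.30, without regard to pairs). Within the pairs of 1 number, the share was higher in rods than in retina in 3 of 3 control and 3 of 3 knockout pairs.

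On this scale, the large subunit genes took 0.153% ± 0.0072 of reads in control rods and 0.133% ± 0.0048 in control retina, without overlap, and 0.156% and 0.132% in knockout rods and retina, also without overlap. The small subunit genes took 0.0504% ± 0.0019 and 0.0515% ± 0.0019, which overlapped (exact permutation p = 0.50), as did the knockout shares (exact permutation p = 0.70). On the TMM scale, the sums of both subunits were higher in control rods without overlap, 1.68-fold for the large and 1.43-fold for the small subunit, and the difference between the subunits was not tested. The sum depended on Mrpl49: without it, the members took 0.184% and 0.176% in control rods and retina, with overlapping libraries (exact permutation p = 0.40), while the large subunit alone still did not overlap, at 0.132% and 0.123%. In knockout mice the large subunit without Mrpl49 took 0.135% in rods and 0.121% in retina, which overlapped (exact permutation p = 0.30).

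The other genes of mitochondrial translation, which were chosen with results of these data known, were described in the same way, on the TMM scale. On this scale, 24.6% of all genes tested were higher in control rods and 37.3% lower. Of the 12918 genes with at least 10 reads in every library, 5912 were higher and 3614 lower. By total reads, 9.02% of all genes were higher and 52.1% lower. All 5 proteins of the mitochondrial ribosome with other symbols were higher in control rods, from 0.31 for Ptcd3 to 0.89 for Gadd45gip1, whereas by total reads 0 were higher and 1 lower. Of 14 translation factors, 8 were higher and 1 lower (4 and 4 by total reads), led by the elongation factors Gfm1 (1.14 ± 0.10) and Tufm (1.09 ± 0.09). The lower gene was Mtfmt, which formylates the initiator tRNA, at -0.58 ± 0.19.

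Of 20 factors that assemble the mitochondrial ribosome, 17 were higher and 1 lower (5 and 2 by total reads). The GTPase gene Noa1 led with 1.05 ± 0.10, and Fastkd2, an RNA-binding protein of the mitochondrial matrix, was the lower one with -0.80 ± 0.16. Of 17 aminoacyl-tRNA synthetases, 11 were higher and 1, Mars2 at -0.82 ± 0.13, lower (4 and 4 by total reads). Lars2 had the largest value of that list, 1.75 ± 0.67, but its SD between the control rod libraries, 10492, exceeded its mean of 8382 normalised reads.

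The second comparison asked whether loss of PKM2 in rods was accompanied by a difference in the members. In rods, limma called 0 of 77 members between knockout and control, where 4 of 21629 genes (0.0185%) were called. edgeR and DESeq2 also called 0 members. At an unadjusted p under 0.05, limma had 3 members, edgeR 5 and DESeq2 1, and limma had 4.73% of all genes. The median log2 fold change of the members was 0.03, beside -0.01 for all genes. The smallest adjusted p of a member was 0.94 with limma and 0.86 with edgeR. The median half-width of the unadjusted 95% interval of a member was 0.28 on the log2 scale.

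Mrps34 had the smallest p in rods. Its reads, before scaling, were 16, 55 and 36 in control rods and 20, 18 and 9 in knockout rods, and its normalised reads were 26.2, 51.2 and 57.2 against 26.0, 24.4 and 9.1. The groups just failed to overlap, and the log2 fold change was -1.19 ± 0.44 (unadjusted p = 0.018, adjusted p = 0.94, limma).

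Mrps30 and Mrps31 followed with higher values in knockout rods. Mrps30, a protein of the large subunit despite its symbol, had 440, 395 and 378 normalised reads in control rods and 465, 469 and 535 in knockout rods, a log2 fold change of 0.27 ± 0.12. Mrps31, of the small subunit, had 303, 296 and 313 against 354, 397 and 349, also 0.27 ± 0.12. For Mrps5, a protein at the entry of the messenger RNA channel, the value was 0.20 ± 0.10. Without overlap between genotypes, 6 members were higher in knockout rods (Mrpl35, Mrpl37, Mrpl45, Mrps5, Mrps30 and Mrps31), against 4.22% of all genes, and 1 was lower (Mrps34), against 5.4% of all genes.

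In retina, limma, edgeR and DESeq2 called 0 of 77 members by genotype, and 0 also at an unadjusted p under 0.05, where limma called 1 of 24881 genes (0.00402%) and had 4.36% of genes at an unadjusted p under 0.05. The smallest p belonged to Mrpl1, of the mobile L1 stalk, which had 250, 223 and 182 normalised reads in control and 183, 186 and 169 in knockout retina. These overlapped narrowly, and the log2 fold change was -0.27 ± 0.14 (unadjusted p = 0.068, limma). Mrpl43 had -0.24 ± 0.13, Mrps26 0.20 ± 0.11 and Mrpl48 -0.17 ± 0.10. In 3 members (Mrpl30, Mrpl43 and Mrps30) the knockout libraries all lay below those of control, against 5.71% of all genes. About 33.4% of the exonic bases of Mrpl43 are shared with Twnk, the mitochondrial DNA helicase gene, on the opposite strand.

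**Figure D4:**
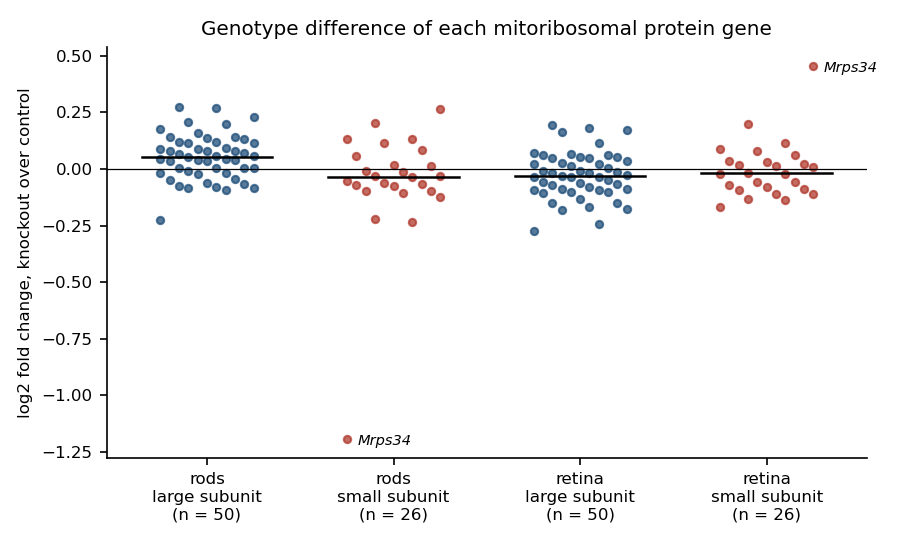
Log2 fold change of knockout over control for each tested member (points) in rods and retina, by subunit, with the median of each set (lines). Medians lie between -0.03 and 0.05, and Mrps34 is the 1 point below -1 in rods and the highest point in retina.

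The difference between the genotype effects in rods and retina was tested in a fit of all 12 libraries. It was called for 0 of 77 members and for 0 of 25584 genes (0%), by limma. At an unadjusted p under 0.05, limma had 4 members, edgeR 3 and DESeq2 4, and limma had 4.42% of all genes. The 4 were Mrps30 with a difference of 0.42 ± 0.15, Mrps34 with -1.65 ± 0.62, Mrpl24 with 0.39 ± 0.16 and Mrps5 with 0.28 ± 0.12. All had an adjusted p of 0.98. The exons of Mrpl24 overlap those of Rrnad1 on the opposite strand over 26.3% of their length.

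In some libraries most members lay to one side of their group mean. In knockout rods, 67 of 76 members lay above their group mean in the first library, with a median deviation of 0.12 on the log2 scale, and 8 of 76 in the third, with a median deviation of -0.10. In control rods, 64 of 76 lay above it in the third library. In retina, 61 of 76 lay above it in the first knockout library and 56 in the first control library. Fewer lay above it in the first and second of control rods (28 and 22), the second of control retina (28) and the third of knockout retina (27). The remaining libraries were split more evenly: the second of knockout rods (43 of 76), the third of control retina (37) and the second of knockout retina (33). The median deviation of all 12918 genes was between -0.02 and 0.02 in every library. Without the first knockout rod library, the median genotype effect of the members in rods was -0.05, and without the third it was 0.11, with 0 members called in both.

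**Figure D5:**
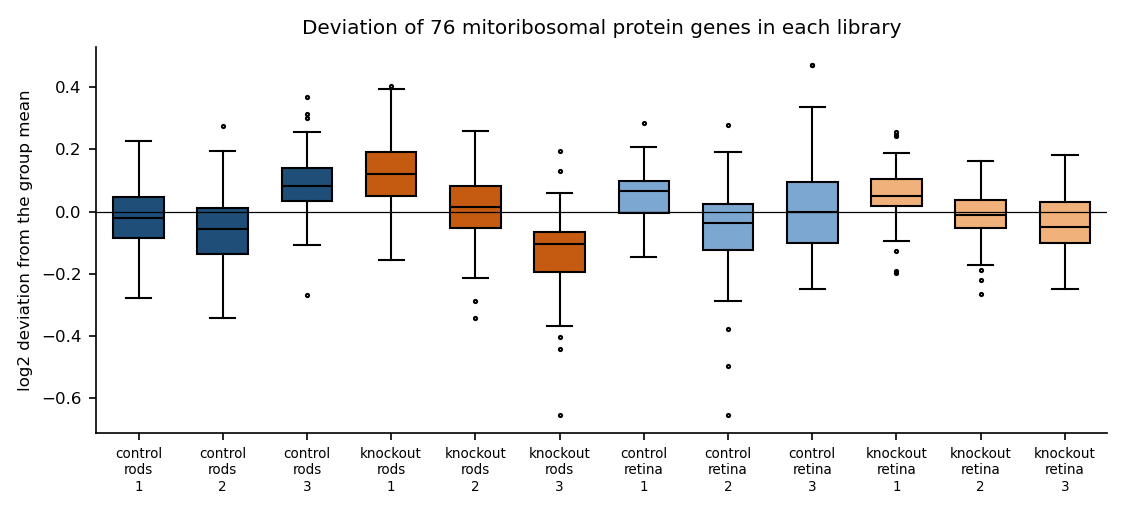
Log2 deviation of each of 76 members from the mean of its group, by library. Boxes give the median and quartiles, whiskers reach 1.5 times the box length and points lie beyond. The third knockout rod library lies mostly below 0 and the first mostly above it.

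Values of the markers of other cell types were also compared by genotype. Of all genes tested, 51.0% had lower values in knockout than in control rods, and 54.3% in knockout than in control retina. All 10 Muller glia markers and all 9 ganglion cell markers had lower values in knockout than in control rods, with medians of -0.39 and -0.41, as had 11 of 12 bipolar markers, and 0 were called. In knockout retina, all 10 Muller glia and all 12 bipolar markers were lower than in control retina, with medians of -0.16 and -0.24. Of the ganglion cell markers, 7 of 9 were lower there, with a median of -0.05. In knockout rods, 6 of 8 cone, 8 of 9 amacrine and 6 of 8 pigment epithelium markers had lower values. So had 6 of 7 microglia and 5 of 7 endothelial markers. In knockout retina, 7 of 8 cone, 7 of 9 amacrine, 6 of 7 microglia and 6 of 7 endothelial markers were lower. Pigment epithelium markers went the other way there, with 5 of 8 higher and a median of 0.46. In both fractions, 0 of the markers of these lists were called. The summed Muller glia level was 9239 to 11000 in knockout rods. The part of these markers in the genotype values of the members was not tested.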

How the data were processed

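Per the labels and methods, polyadenylated RNA from Rod-TRAP and from retinal lysate was sequenced in 12 libraries. The submitters' processing notes name CASAVA 1.8.2, HISAT2, DESeq2, edgeR and GRCm39; the counter, its annotation and its use of strand are not given in the sources used here. The authors deposited the values as a signal, that is, reads divided by a size factor set within each fraction, rounded to 1 decimal. Dividing by the value of 1 read gave whole reads (within 0.1 read) for 99.96% of positive values.

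These reads were scaled together by TMM (edgeR 4.0.16) and tested as log2(value + 1) with limma 3.58.1 (trend), keeping genes with a mean of at least 1 in a compared group. Genotype tests used the 6 libraries of a fraction, and rods against retina and the interaction used all 12. edgeR's quasi-likelihood test and DESeq2 1.42.0 on the reads were alternatives. The limma tests were also run on simulated data. In the simulated comparison of rods with retina, both had the same baseline apart from a set of changed genes, so the choice of scale was not tested. Summed reads were compared by exact permutation tests. Exon lengths and overlaps came from GENCODE M21 (GRCm38), another build than that of the files, so they are approximate.

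Members, gene lists and motifs were chosen with earlier results of these data known. Named members were the 6 most enriched and 6 most depleted that were called (none was depleted), the 4 with the smallest p by genotype and interaction, the 4 highest and lowest per kb, and Mrpl10, Mrpl12, Mrpl58, Mrps12, Mrpl44, Mrps18a, Mrps18b, Mrps18c and Mrps36, plus overlapping genes. Members named as calls under all scalings, as groups that did not overlap, or as least enriched (Mrps15, Mrpl3) were chosen after their values were seen. Rod and retina libraries of 1 number and genotype deviated together (correlation 0.16 to 0.40 in 6 of 6 pairs, each highest with its own number), so numbers pair fractions. The sources do not tie each library to an animal, so p-values measure the spread between these libraries. One gene of the rod marker list is not reported here.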

Additional observations from a re-analysis of the deposited data

How the results depend on the processing

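The scale shared by rods and retina decided most of what changed. With total reads scaling, 20 members were higher and 16 lower in control rods, and 24 and 13 in knockout rods. With the deposited values, the counts were 18 higher and 18 lower in control rods, and 24 and 16 in knockout rods. Among the named members, some log2 fold changes of control rods over retina that were called under TMM or the other scale turned below 0, besides further members that are not named. With total reads scaling these were Mrpl10 (-0.34), Mrpl16 (-0.47), Mrpl24 (-0.33), Mrpl48 (-0.41), Mrps5 (-0.34), Mrps18a (-0.013), Mrps18c (-0.084), Mrps26 (-0.31), Mrps30 (-0.094) and Mrps36 (-0.25). With the deposited values they were Mrpl1 (-0.39), Mrpl10 (-0.39), Mrpl16 (-0.51), Mrpl24 (-0.38), Mrpl48 (-0.45), Mrps5 (-0.38), Mrps18a (-0.058), Mrps18c (-0.13), Mrps26 (-0.36), Mrps30 (-0.14) and Mrps36 (-0.30).

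The log2 ratio of the members' share of reads was 0.13 between control rods and retina and 0.16 in knockout mice. It became 0.69 and 0.75 with the sum of TMM-scaled values. In control mice it was 0.061 without Mrpl49, a setting chosen after seeing the data. Leaving out 1 library gave 52 to 57 members higher in control rods and 56 to 61 in knockout rods, and 0 members called by genotype or interaction. RLE scaling, a pseudocount of 0.1, at least 10 reads in every library, edgeR and DESeq2 gave 53 to 59 members higher and 0 lower in both genotypes. With the replicate block, 62 and 61 members were higher, and among the named members it changed only the calls of Mrpl10 and Mrps12. Control and knockout libraries of 1 number did not deviate together (correlation -0.24 to 0.11), and the block gave 0 members by genotype. Mrps34, with few reads and shared exons, had wide intervals, and Mrpl53 could not be assessed.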
